A study of Tachysurus vachellii with 12 samples.

Results

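The resting liver mRNA of a catfish, Tachysurus vachellii (Pelteobagrus vachelli in the title of the series), taken as juveniles, was described from the 3 control libraries of the 12 in the series. Each library, lettered a, b or c, came from a pool of 5 livers of fish kept at 6.8 mg/L oxygen and dissected straight from the aquaria after mild eugenol anaesthesia, so that 15 fish stand behind the values. No other group entered, and no difference between conditions was tested. The 3 columns of estimated counts were chosen by their control labels and not by any measured value.

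The mRNA reads had been assembled without a genome, and the unit counted is an assembled component, which stands for a gene or for a piece of one. Of 34744 components, 15609 carried a gene name or a protein annotation and were ranked (15051 had a name and 558 an annotation alone). The libraries held 32876849, 34104589 and 34224292 counts, of which 86.0%, 86.6% and 85.1% fell in annotated components. Levels are given as counts per 1000000 (CPM), which grow with transcript length and serve to compare pools, or as transcripts per 1000000 (TPM), which divide by the effective length and serve to compare genes. The pools are separate sets of fish, but nothing in the labels ties a letter to an aquarium.

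The liver makes most of the proteins of blood plasma, among them the clotting factors, the complement proteins and the carriers of iron, haem and lipid, and it holds an extensive endoplasmic reticulum for that export. Its hepatocytes also store and release glucose, break down amino acids, assemble lipoproteins and make bile acids. In many bony fishes the exocrine pancreas is not a compact organ but tissue spread along the gut and its vessels, which in some species enters the liver.

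Pools a and b were close to each other and pool c stood away from both. Over components with a mean of at least 10 CPM, Pearson's r of log2(CPM + 0.5) was 0.991 between a and b, 0.921 between a and c and 0.928 between b and c, where components share libraries and are not independent. The median absolute log2 difference was 0.12 between a and b, 0.26 between a and c and 0.31 between b and c. A component at a mean of 10 CPM rested on a mean of at least 336 counts a pool, and the counting error at that mean count was 5.45%. It is larger in a single pool with few counts, such as 6 for CKM in pool b or 8 for Pnliprp1 in pool c. Median squared differences were 8.06, 34.3 and 49.0 times the counting value for the same 3 pairs.

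Few components held much of the message. The 10 highest annotated components held 18.3%, 19.05% and 21.1% of all counts in pools a, b and c (19.5% ± 1.44, SD, n = 3), and the 100 highest annotated held 49.7% ± 1.68. Ranked over all components, with or without an annotation, 68 held as much of the mean CPM as all others together. At the other end, 10870 annotated components reached a mean of 1 CPM, 4853 reached 10 CPM, 753 reached 100 CPM and 134 reached 1000 CPM. Per length the 10 highest held 16.1% ± 0.322 of the summed level. Of the 20 highest by CPM, 12 were also among the 20 highest by TPM, and the median effective length of the 20 was 2575 bases by CPM and 1554 bases by TPM.

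**Figure D1:**
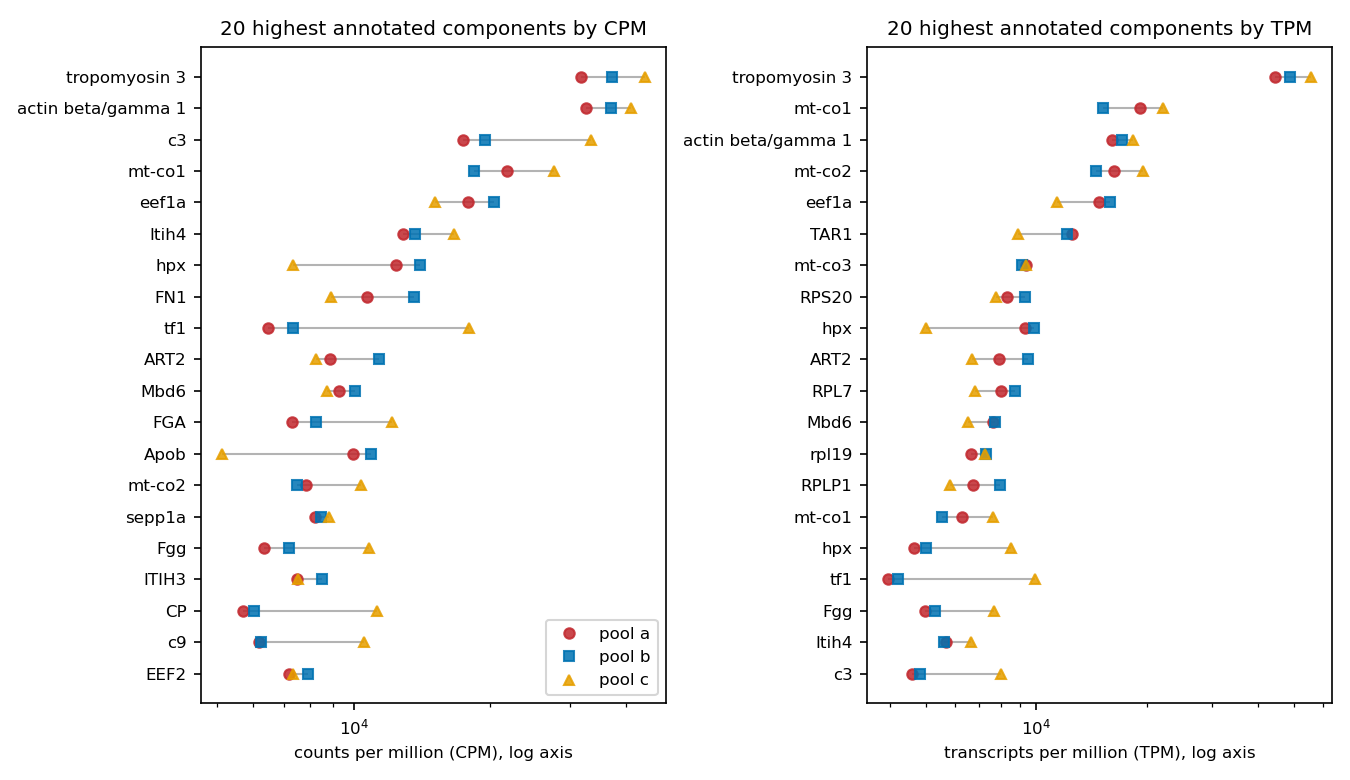
Levels of the 20 highest annotated components by mean CPM (left) and by mean TPM (right), with 1 marker for each control pool and a grey line from the lowest to the highest pool on log axes. The component annotated tropomyosin 3 leads both panels, and pool c (triangles) lies at 17942 CPM for tf1 and at 5123 CPM for Apob, away from the other pools.

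The 2 leading annotated components by CPM carry cytoskeletal annotations and no gene name, and by TPM mt-co1 lies between them. The one annotated tropomyosin 3, an actin-binding protein, stood at 44378, 48746 and 55665 TPM in pools a, b and c. The one annotated actin beta/gamma 1 stood at 16054, 17110 and 18278 TPM, while actbb, a separate component named for cytoplasmic beta actin, stood at 980, 1128 and 553 TPM. The actin-annotated component belongs to an assembly group of 9 components that also holds mt-co1, ART2, TAR1, Mbd6 and the most abundant unannotated component. That group took 10.5%, 10.3% and 11.4% of all counts. ART2 and TAR1 are names of yeast reading frames that lie opposite the ribosomal RNA genes, and the Mbd6 component bears the annotation of another protein, phosphatidylinositol glycan class F. No sequences were at hand to check these names, so the levels of these components are those of the assembled pieces and not of identified genes.

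Subunits of cytochrome c oxidase encoded in the mitochondrion were among the highest levels. The subunit mt-co2, outside that group, stood at 16258, 14565 and 19503 TPM and mt-co3 at 9368, 9126 and 9355 TPM. The mt-co1 component of the group, whose name and annotation both give subunit I, stood at 19166, 15134 and 22011 TPM. The 14 mitochondrially encoded symbols found, mt-co1 included, made up 5.59% of the summed level, with 1 component for each symbol. A second mt-co1 component, at 6298, 5549 and 7642 TPM, is not in that sum. The list holds several symbols for a gene, so the 14 need not be separate genes. Of the 9 symbols that reached a mean of 10 CPM, 0 spread 2-fold between pools, where 7.63% of all components at that level did. These are too few genes to set them apart from that share.

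Ribosomal proteins were the largest of the classes summed here. The 84 found made up 22.6%, 24.7% and 21.2% of the summed TPM (22.8% ± 1.77, SD, n = 3), led by RPS20 at 8298, 9312 and 7785 TPM and RPL7 at 8024, 8760 and 6793 TPM. The elongation factor eef1a, which brings aminoacyl-tRNA to the ribosome, stood at 14824, 15807 and 11345 TPM and was the highest of 18 translation factors, which summed to 3.01%. Ribosomal proteins were also even between pools. Of the 81 that reached 10 CPM, 0 had a highest pool at least 2 times the lowest, where 7.63% of all 5659 components at that level did.

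Plasma carriers and protease inhibitors summed to 32260, 33364 and 32874 TPM over 14 symbols found, and coagulation proteins to 24783, 26435 and 32160 TPM over 18. Itih4, a heavy chain of the inter-alpha-trypsin inhibitor family, stood at 5673, 5619 and 6661 TPM. The selenium carrier sepp1a was almost level between pools at 4648, 4488 and 4508 TPM, although its annotation names a ribosomal S6 kinase. The 3 fibrinogen chains, which form the clot, were the highest coagulation transcripts, and each was highest in pool c. FGA stood at 3951, 4170 and 5958 TPM, FGB at 4270, 4940 and 6241 TPM and Fgg at 4993, 5296 and 7692 TPM.

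Some other clotting proteins moved little. Prothrombin (F2) stood at 3076, 3199 and 3228 TPM and antithrombin (SERPINC1) at 2947, 3077 and 2878 TPM. Of the 16 coagulation genes that reached 10 CPM, fibrinogen chains included, 0 spread 2-fold between pools, where 7.63% of all components at that level did. These are too few genes to set them apart from that share. The median ratio of highest to lowest pool of the 16 was 1.19 against 1.28 for all components at that level.

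Some proteins that textbooks place among the main products of liver were low or were not found under their names. No component was named ALB or VTG1 (the egg yolk precursor vitellogenin), and this says nothing of unnamed components. The representative apoa1 component, named for the main protein of high-density lipoprotein, stood at 26.9, 28.0 and 23.2 TPM. An unnamed component annotated apolipoprotein A-I stood at 21.3, 25.9 and 71.1 TPM. Apob, the large protein of low-density lipoprotein, was the highest of the lipoprotein list at 1263, 1297 and 589 TPM. The fatty acid binding protein fabp1, annotated as the ileal member of that family, stood at 1905, 1662 and 1433 TPM, while fabp10a, named for the liver-type protein of fishes, was at 1.28, 0.62 and 0 TPM. Components with neither name nor annotation reached means of 39239, 23713 and 10362 TPM. Whether any of them encodes a protein named here was not tested, so these low values are those of the named components alone.

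For transferrin, components with related labels stood at very different levels, and their products were not checked. The component named tf stood at 85.6, 79.4 and 120 TPM, and tf1, whose annotation is the melanoma-associated antigen p97 (a member of the transferrin family), stood at 3961, 4205 and 9936 TPM. In the same way FTH1 by name was near 0, with 1.01, 0.75 and 0.57 TPM, while an unnamed component annotated ferritin heavy chain, an iron store, stood at 3120, 3332 and 3246 TPM. CP, named for the copper oxidase ceruloplasmin but annotated as ferritin heavy chain, stood at 2382, 2352 and 4261 TPM.

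Metabolic genes were expressed well below the plasma proteins. The amino acid breakdown list, 38 symbols found, summed to 8121, 7979 and 5149 TPM, and hpd, which acts in tyrosine breakdown, led it with 1591, 1495 and 937 TPM. The glucose and glycogen list, 15 found, summed to 6474, 6758 and 4864 TPM, led by G6PC, which releases free glucose, at 1890, 1950 and 1284 TPM. Among detoxifying enzymes cyp2k1, a fish cytochrome P450 annotated to another subfamily, stood at 1247, 1147 and 356 TPM, and cyp1a1, which oxidises aromatic compounds, at 957, 1043 and 873 TPM. Fatty acid oxidation summed to 0.0991% of the level over 21 symbols, and the circadian clock to 0.0243% over 18.

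For bile acid synthesis 3 components were named CYP7A1 or Cyp7a1, and their annotations differ. The third is not reported here. The most abundant, annotated as the oxysterol 7-alpha-hydroxylase of subfamily B, stood at 62.4, 68.7 and 88.4 CPM. A second, annotated as cholesterol 7alpha-monooxygenase, the rate-limiting enzyme of bile acid synthesis, stood at 19.02, 18.5 and 4.22 CPM and so was lowest in the pool where the first was highest.

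**Figure D2:**
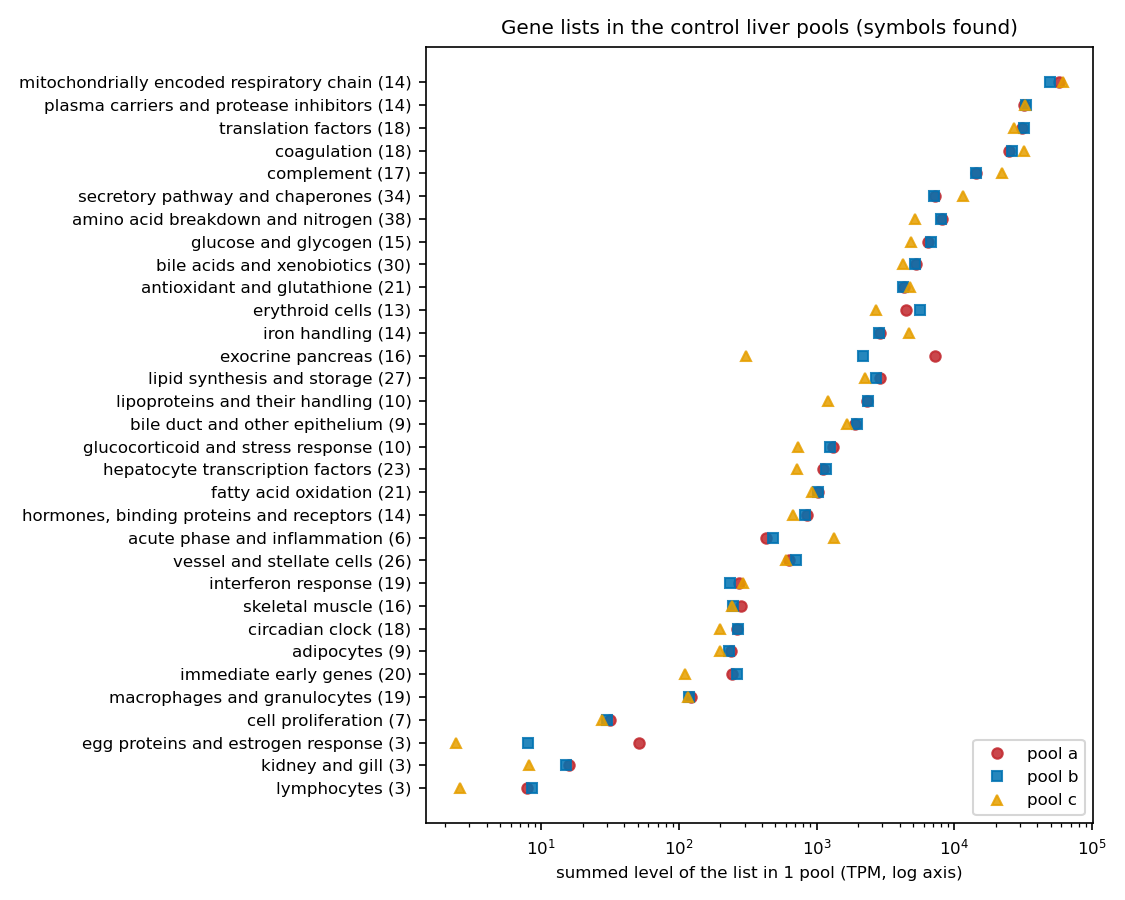
Summed TPM of each gene list in each control pool on a log axis, with the number of symbols found in parentheses and 1 marker a pool. Most lists lie close together in the 3 pools, while the exocrine pancreas list runs from 7265 TPM in pool a to 305 TPM in pool c.

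Markers of other cell types show what else the pools held. Skeletal muscle markers summed to 283, 247 and 243 TPM over 16 symbols, of which 3 reached 10 CPM. A single component named TTN led them, at 143, 154 and 124 TPM. Vessel and stellate cell markers summed to 634, 704 and 601 TPM over 26, led by the collagen COL1A1 at 271, 340 and 203 TPM. Keratins of bile duct and other epithelium, krt8, krt18 and KRT19, stood between 304 and 498 TPM, though hepatocytes of fish also express keratins. Macrophage and granulocyte markers summed to 123, 119 and 117 TPM with 4 of 19 reaching 10 CPM, and 0 of 3 lymphocyte and 0 of 3 kidney and gill markers found reached it. The lymphocyte symbols summed to 7.83, 8.50 and 2.58 TPM, those of kidney and gill to 15.8, 15.2 and 8.15 TPM, and those of adipocytes, 9 found and 4 of them at 10 CPM, to 239, 232 and 200 TPM. The adipocyte sum was led by LPL, CEBPA and PPARG, and CEBPA and PPARG are also in the hepatocyte transcription factor list. No symbol of the endocrine pancreas list was found among the names. The hepatocyte regulator hnf4a was present in each pool, at 63.0, 63.5 and 52.4 TPM. In pooled tissue, fewer cells of a type and less RNA per cell cannot be told apart.

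In all, 432 components, 318 of them named, had a highest pool at least 2 times the lowest, and in 422 of the 432 pool c lay at least 1.5 times above or below both others. Between pools a and b alone, 33 components differed 2-fold, against 385 between b and c and 318 between a and c, with each pair scaled anew. Pool c lay at least 1.5 times above both others in 349 components (6.17%) and below in 515 (9.1%). Scaled by library totals alone, the counts were 242 above and 769 below, so the balance of directions depends on the scaling. The median component moved little on the scale used, by -0.03 (log2) from a to c and by -0.10 from b to c, against -0.18 and -0.15 with library totals. Pool a lay above both others in 30 components (0.53%) and below in 2 (0.0353%), and pool b above in 2 (0.0353%) and below in 13 (0.23%).

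**Figure D3:**
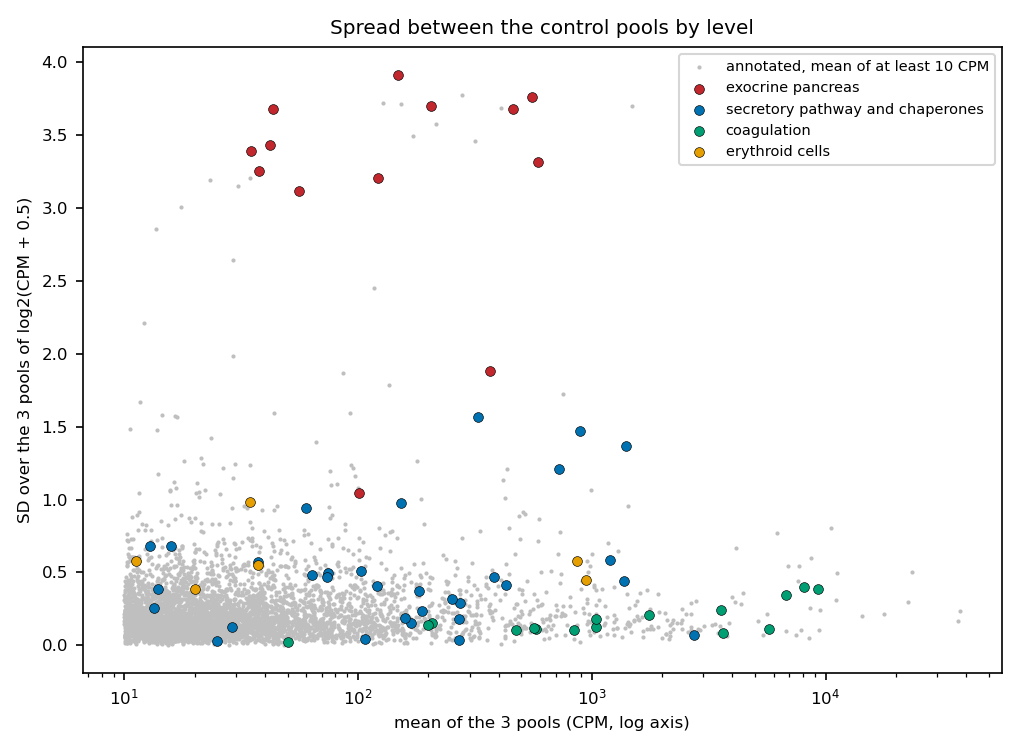
SD over the 3 pools of log2(CPM + 0.5) against mean CPM (log axis), 1 grey point for each annotated component of at least 10 CPM, with the tested members of 4 lists in colour. Exocrine pancreas members lie highest, up to an SD of 3.91 for CTRC, and coagulation members lie low at high levels.

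Among named components, the digestive enzymes of the exocrine pancreas had the largest SDs. Of the 25 named components with the largest SD, 18 were pancreatic enzymes, their companion syncollin or the astacin proteases lce and hcea, which also appear as hatching enzymes in fishes. The astacins were not in the exocrine pancreas list and were added after the values were seen. The 18 are therefore drawn in part from this ranking. CTRC, named for a chymotrypsin and annotated as a pancreatic elastase, had the largest SD of them, with 330, 112 and 1.44 CPM in pools a, b and c. CELA2A, an elastase, stood at 1251, 398 and 8.14 CPM, and Cpa1, a carboxypeptidase, at 1318, 429 and 15.4 CPM. The bile salt-stimulated lipase CEL stood at 1058, 310 and 7.37 CPM. In each case pool a was highest and pool c lowest, with pool b between.

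The order held beyond the named enzymes. An unnamed component annotated trypsin was the most abundant of all, at 3434, 980 and 24.2 CPM, and Prss1, named for cationic trypsin, stood at 283, 80.5 and 3.27 CPM. An unnamed chymotrypsin stood at 923, 294 and 6.49 CPM and an unnamed alpha-amylase, which digests starch, at 481, 163 and 3.76 CPM. Syncollin (Sycn), a protein of the zymogen granule, stood at 122, 43.9 and 1.44 CPM. Of the 30 components in which pool a lay above both others, 23 were in this set of digestive enzymes, chosen in part after the values were seen.

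Their ratios of pool a to pool b lay close together, while their ratios of pool a to pool c spread widely. Over 23 digestive enzyme components other than colipase, pool a was 2.66 to 3.73 times pool b, with a median of 3.07. It was 13.4 to 171 times pool c, with a median of 109, on values with 0.5 CPM added. The lowest ratio to pool c belonged to CPB1, a carboxypeptidase, at 775, 267 and 57.6 CPM.

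Colipase (clps), the cofactor of pancreatic lipase, was the exception, with 126, 37.5 and 140 CPM in pools a, b and c, so that pool c was as high as pool a. The summed level of the exocrine pancreas list was 7265, 2171 and 305 TPM over 16 symbols found. Of these 13 reached 10 CPM, and all 13 spread at least 2-fold, where 7.63% of all components did. The transcription factors ptf1a and Rbpjl, which act in acinar cells, were at 0.115, 0.0297 and 0 CPM and at 0.115, 0.0594 and 0 CPM. Such values rest on a few counts, as 3 counts correspond to 0.0862 to 0.0917 CPM, and no order between pools can be read from them. Leaving out the exocrine pancreas symbols took the number of variable components from 432 to 417.

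**Figure D4:**
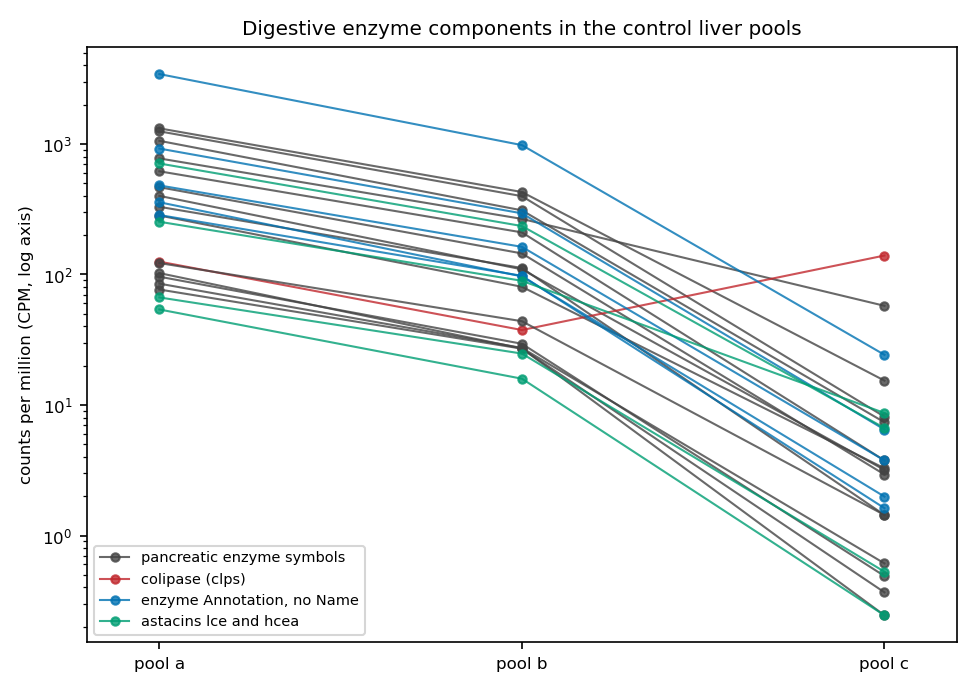
CPM on a log axis of 24 digestive enzyme components in the 3 control pools, 1 line a component, coloured by how the component was found. All but colipase are highest in pool a, intermediate in pool b and lowest in pool c, and colipase stands at 126, 37.5 and 140 CPM.

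Many chaperones and enzymes of the endoplasmic reticulum, which fold and export secreted proteins, were higher in pool c. Of the 32 members of the secretory list at 10 CPM, pool c lay above both others in 15 and below in 3, where it lay above in 6.17% and below in 9.1% of all components. The chaperone HSPA5 (BiP) stood at 323, 356 and 1989 CPM in pools a, b and c and HSP90B1 at 569, 598 and 3022 CPM. The disulfide isomerase PDIA4 stood at 114, 114 and 753 CPM. Pools a and b nearly coincided for all 3, and the ratio of highest to lowest pool was 6.14 for HSPA5, 5.30 for HSP90B1 and 6.60 for PDIA4.

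The calcium-binding chaperone CALR, calreticulin, had 3 components, and pool c was highest in each. They stood at 354, 336 and 1476 CPM, at 374, 364 and 1046 CPM and at 238, 236 and 797 CPM, and reads may be divided among them. A DNAJC3 component and creld2, also of this compartment, stood at 15.3, 13.8 and 101 CPM and at 38.4, 41.3 and 150 CPM. The oligosaccharyl transferase subunits RPN2 and ddost, both annotated as another subunit of that complex, were higher in pool c as well, with 290, 321 and 532 CPM and 98.6, 99.2 and 162 CPM. The transcription factors atf4 and DDIT3, which act in the stress responses of this compartment, were level, at 277, 274 and 264 CPM and at 9.93, 9.41 and 10.02 CPM, and Xbp1 stood at 243, 259 and 310 CPM.

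Some heat shock proteins outside the endoplasmic reticulum, picked after their values were seen, were not higher in pool c. The cytosolic hsp90ab1 stood at 2740, 2874 and 2618 CPM, the mitochondrial HSPD1 at 123, 121 and 66.0 CPM and hsp70 at 17.5, 14.2 and 6.82 CPM. SERP1, a small membrane protein of the translocon, had 2 components of opposite order, with 471, 518 and 303 CPM in the larger and 8.16, 7.57 and 21.1 CPM in the smaller.

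Some plasma proteins were higher in pool c. In the complement list pool c lay above both others in 7 of 15 and below in 0. In the plasma carrier list it lay above in 7 of 13 and below in 1. Of all components it lay above in 6.17% and below in 9.1%. C3, the central complement protein (c3), stood at 17424, 19546 and 33434 CPM, and CFB, factor B of the alternative pathway, at 3099, 2810 and 6553 CPM. HP, named for the haemoglobin carrier haptoglobin but annotated as the complement protein C1s, stood at 183, 238 and 878 CPM, and the protease inhibitor A2m at 298, 303 and 868 CPM. The median log2 difference of pool c was 0.65 against a and 0.53 against b for complement, and 0.62 and 0.64 for the plasma carriers.

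The other 8 complement and 6 plasma carrier members did not have pool c above. Among them were C7, a part of the membrane attack complex, at 1085, 1256 and 723 CPM, C5 at 1911, 2019 and 2042 CPM and Itih4 at 12870, 13628 and 16693 CPM. The member with pool c below was a component of hemopexin. Beyond the lists, Itln1b, an intelectin that binds microbial sugars, stood at 224, 234 and 1812 CPM, while its relative Itln1 stood at 1283, 1598 and 1408 CPM. Of the inflammation list, 6 of 32 symbols were found and 3 reached 10 CPM. These were HP, the metalloreductase STEAP4 (annotated STEAP3) at 358, 363 and 551 CPM, and Nfkbia, the inhibitor of NF-kappaB, at 24.8, 26.9 and 28.6 CPM.

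The haem carrier hemopexin (hpx) gave 2 abundant components, comp4099_c0 and comp4108_c0, that ran against each other. The first stood at 12374, 13999 and 7359 CPM and the second at 4933, 5679 and 10021 CPM, so that the smaller in pools a and b was the larger in pool c. RefSeq lists 2 symbols that begin with hpx for this species (assembly HZAU_Pvac_v1, used for symbols alone). With reads of near-identical copies the split between the components is uncertain.

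**Figure D5:**
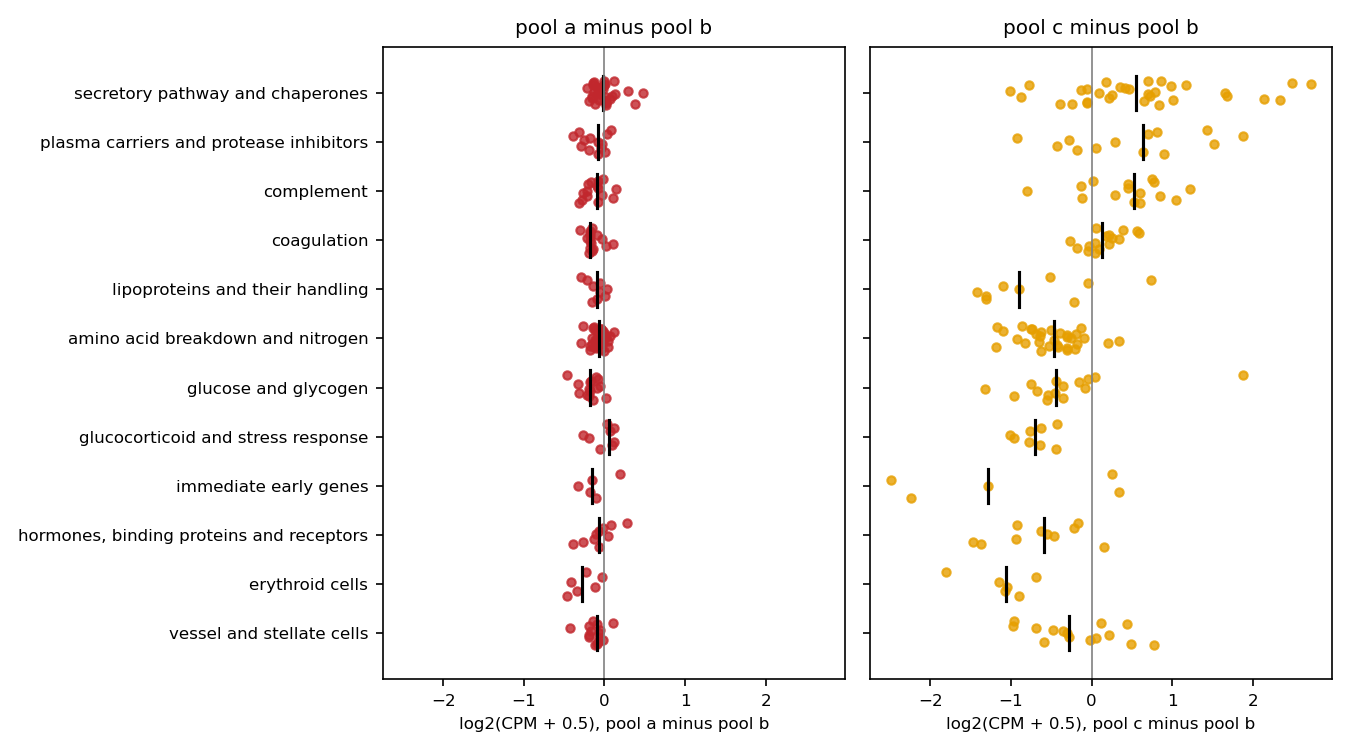
Difference in log2(CPM + 0.5) of pool a (left) and pool c (right) from pool b for the members of 12 gene lists at 10 CPM or more, 1 point a gene, with a black bar at the median. Points of pool a lie near 0, and those of pool c spread to both sides, with medians of 0.56 for the secretory list and -1.06 for erythroid cells.

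In the lipoprotein list pool c lay below both others in 5 of 9 members at 10 CPM and above in 1, against 9.1% and 6.17% of all components. Apob stood at 9952, 10929 and 5123 CPM, the hepatic lipase LIPC at 592, 633 and 256 CPM and CETP, named for a lipid transfer protein but annotated as a prolyl isomerase, at 546, 565 and 211 CPM. MTTP, which loads lipid onto apolipoprotein B, was level at 259, 268 and 260 CPM. LCAT, which esterifies cholesterol in plasma, was the member above, at 143, 166 and 277 CPM.

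In the lipid synthesis list pool c lay below both others in 3 of 16 members at 10 CPM and above in 0. Of all components, 9.1% had pool c below and 6.17% above. With library totals it lay below in 5 of the list, where all components went from 515 to 769. Acaca, acetyl-CoA carboxylase, stood at 510, 604 and 143 CPM and FASN, fatty acid synthase, at 45.8, 44.6 and 19.5 CPM. These were 2 of the 3. PLIN2, which coats lipid droplets, stood at 109, 138 and 193 CPM. Diacylglycerol acyltransferase (dgat2), which makes storage fat, was level at 117, 128 and 127 CPM.

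In amino acid breakdown pool c lay below both others in 11 of 31 members and above in 0, where 9.1% and 6.17% of all components did. AGXT, which removes glyoxylate, stood at 1512, 1652 and 733 CPM, Mat1a, which makes S-adenosylmethionine, at 865, 874 and 409 CPM, and Gldc, of the glycine cleavage system, at 160, 174 and 76.4 CPM. Gnmt, glycine N-methyltransferase, differed little, at 155, 171 and 156 CPM.

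In glucose metabolism, 2 enzymes of glucose synthesis were lower in pool c. Pck1, which commits carbon to new glucose, stood at 740, 844 and 433 CPM and pyruvate carboxylase (Pc) at 681, 774 and 310 CPM. The glucose transporter SLC2A2 and the glycogen synthase GYS2 were level, at 115, 124 and 127 CPM and at 643, 683 and 646 CPM.

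Genes known to respond to glucocorticoids were lower in pool c in 6 of 8 members, against 9.1% of all components. Among the 6 were Pck1, Tat and Per1, which also belong to the glucose, amino acid breakdown and clock lists. FKBP5, a chaperone of the receptor, stood at 317, 292 and 171 CPM and Klf9 at 75.0, 71.2 and 41.7 CPM, while the receptor nr3c1 itself stood at 81.9, 80.9 and 67.9 CPM. Of 5 immediate early genes at 10 CPM, pool c lay below in 3, against the same 9.1%. These were fos at 23.6, 25.4 and 4.98 CPM, junb at 93.7, 117 and 48.0 CPM and mycb at 86.3, 95.8 and 16.7 CPM. JUN stood at 10.7, 9.32 and 11.2 CPM.

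Receptors and hormones with a lower pool c were Insr, the insulin receptor, at 60.8, 66.7 and 34.6 CPM, Gcgr, the glucagon receptor, at 34.1, 44.7 and 16.96 CPM, and igf2, annotated as the related growth factor IGF1, at 100, 94.7 and 49.7 CPM. They were among 4 of 10 list members with pool c below, against 9.1% of all components. Of 21 hepatocyte transcription factors 4 had a lower pool c, and 7 with library totals, where all components went from 515 to 769. CEBPD stood at 225, 262 and 72.9 CPM and CEBPA at 62.8, 63.6 and 30.2 CPM, while hnf4a stood at 61.0, 65.7 and 56.1 CPM.

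The 25 named components with the largest SD held 7 outside the digestive enzymes. In 4 of these pools a and b were alike and pool c was far lower. SLC10A1, which takes up bile acids, stood at 17.4, 18.3 and 0.795 CPM, and PGR, the progesterone receptor, at 39.4, 44.5 and 3.41 CPM. TCTN2, a protein of the base of cilia, stood at 193, 190 and 22.03 CPM, and TAR1-A, another name of a yeast reading frame opposite ribosomal RNA, at 131, 116 and 12.6 CPM. A Vmo1 component, at 76.3, 26.6 and 0.581 CPM, and endou, an endoribonuclease, at 64.8, 21.1 and 1.33 CPM, had the order of the digestive enzymes. More abundant components of the name Vmo1 were highest in pool c, at 193, 183 and 456 CPM and at 245, 253 and 350 CPM. CKM was low in pool b.

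Other lists were mixed, and their balance depends on the scaling. Of all components, pool c lay above both others in 6.17% and below in 9.1% (242 and 769 of 5663 with library totals). In iron handling pool c lay above both others in 4 of 11 members and below in 2 (2 and 2 with library totals), among them the iron exporter slc40a1 at 27.3, 32.2 and 52.8 CPM and the transferrin receptor TFRC at 225, 237 and 147 CPM. In bile acid and xenobiotic genes it lay above in 4 and below in 3 of 26 (2 and 3 with library totals), with cyp2k1 at 1858, 1827 and 586 CPM and the glutathione transferase GSTM3 at 54.7, 42.5 and 97.4 CPM. In antioxidant genes it lay above in 2 and below in 1 of 17 (1 and 3 with library totals), with the secreted peroxidase Gpx3 at 1466, 1417 and 2268 CPM and the lipid peroxidase GPX4 at 363, 373 and 232 CPM. Of 16 clock genes it lay above in 1 and below in 5 (0 and 7 with library totals), such as the repressor Nr1d1 at 38.7, 31.8 and 18.8 CPM.

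In fatty acid oxidation pool c lay below in 2 and above in 0 of 18, against 9.1% and 6.17% of all components. The median ratio of highest to lowest pool in this list was 1.25, against 1.28 for all. Its most variable member, PPARA, stood at 12.1, 13.8 and 5.56 CPM. In translation factors pool c lay above in 1 and below in 1 of 18. In the interferon response 0 of 4 members spread 2-fold, where 7.63% of all components did, too few genes to set apart from that share. Cell proliferation genes were scarce, with 1 of 7 found at 10 CPM and a summed level of 31.6, 30.2 and 27.7 TPM.

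Erythroid markers were lower in pool c in 5 of the 6 members at 10 CPM, against 9.1% of all components. The globin hbb stood at 887, 1184 and 535 CPM and the anion exchanger SLC4A1 of the red cell membrane at 41.6, 48.6 and 13.6 CPM. The globin hba, at 911, 1256 and 675 CPM, was also lowest in pool c but by less than 1.5 times. The 13 symbols found summed to 4429, 5604 and 2697 TPM, with hbb1 at 0 in pool c. This moved with the lower levels of pool c given above and its part in them was not tested. Vessel and stellate cell markers did not have 1 direction, with pool c above in 1 and below in 2 of 15. Of the 15, 0 spread 2-fold, where 7.63% of all components did, and these are too few genes to set apart from that share.

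A few components were present in some pools alone. The egg envelope proteins ZP4 and ZP3 stood at 21.8, 0.089 and 0.0611 CPM and at 11.1, 0.089 and 0 CPM in pools a, b and c, where 3 counts correspond to 0.0862 to 0.0917 CPM. They were 2 of 3 components with at least 3 CPM in pool a and at most 3 counts in each other pool. The estrogen receptor esr1, through which estrogen induces egg proteins in fish liver, stood at 5.09, 4.93 and 1.53 CPM. Muscle creatine kinase CKM, an enzyme of energy supply in muscle, was low in pool b alone, at 23.3, 0.178 and 17.7 CPM, while ACTA1 of skeletal muscle stood at 6.35, 5.26 and 6.60 CPM. These components were chosen after their values were seen.

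Components at 0 or close to it in pool c alone numbered 5, of which 3 were annotated. A second apoa1 component stood at 11.6, 10.7 and 0 CPM, ART3 at 8.96, 7.48 and 0.0306 CPM and selm, a selenoprotein, at 20.0, 6.20 and 0.0611 CPM. Components present in pool c alone numbered 9, of which 1 was annotated (ATPA, at 0.0575, 0 and 3.24 CPM). Of the unannotated ones, comp7831_c0 stood at 0, 0 and 120 CPM and comp7961_c0 at 0, 0 and 119 CPM, with SDs of 4.57 and 4.56 that exceed that of CTRC. An assembled component can be 1 of several versions of a gene, and whether other components carry the same gene was not tested.

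The steadiest named components of at least 100 CPM were SCCPDH, at 409, 411 and 413 CPM, rnaset2, an RNase, at 115, 115 and 117 CPM, and Hadha, of mitochondrial fatty acid oxidation, at 119, 118 and 117 CPM. Next were Pacsin3 (annotated as an axonemal dynein) at 125, 124 and 126 CPM, PGRMC1 at 204, 207 and 206 CPM and ndufa4, a respiratory chain subunit, at 158, 155 and 157 CPM. This order belongs to the scaling used, since with library totals alone 0 of the 10 steadiest were the same, and with DESeq2 size factors 8 were. Of the 25 most variable, all 25 were the same under both.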

How the data were processed

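Per the labels, the authors extracted liver RNA with Trizol, made libraries with an Illumina TruSeq kit, sequenced them on a HiSeq 2500 as paired ends, trimmed the reads and assembled them with Trinity. The deposited table holds estimated counts per assembled component, with fractions and not scaled, for which the submitters' processing notes name RSEM 1.2.3. The authors also deposited RPKM values, used here only as an alternative, and an effective length in bases (other unit). The hypoxia columns, the small RNA table and the pathway terms of the Gene Ontology were not used here. No genome, sequence or coordinate was used. The columns were assigned by the group code and letter in their names, and 0 were left unassigned.

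Counts were scaled by TMM (edgeR 4.0.16 in R 4.3.3, factors 1.06, 0.988 and 0.956 for pools a, b and c) to CPM, or divided by effective length and scaled to 1000000 (TPM). Spread is the SD of log2(CPM + 0.5) over pools, for components with a mean of at least 10 CPM. A component was called variable at a ratio of 2 between highest and lowest pool, and a pool apart at 1.5 from both others. No p-value was computed. Library totals and DESeq2 1.42.0 size factors, other limits and each pool left out were alternatives. The counting was tested on simulated counts. Tables and plots used Python 3.11.15, pandas 2.3.3 and matplotlib 3.10.9.

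Gene lists (23 of liver and 10 of other cell types) were matched to names by symbol, ignoring case, and the most abundant component stood for a symbol. Some symbols stand in several lists, such as CP and tf in iron handling and plasma carriers, so the counts of different lists are not independent. Named are the 20 highest components by CPM and by TPM, the 25 named ones with the largest SD, the 10 with the smallest SD at 100 CPM or more, the 3 highest members of each list by TPM with the most variable one, and 8 genes in all cases (VTG1, ALB, APOA1, TF, CYP7A1, PRSS1, HBA, HBB). Other genes were named after their values were seen, as were the sets of unnamed digestive enzymes. The astacins lce and hcea were also joined to the digestive enzymes at that stage. The samples and lists were chosen with earlier results of these data known. Whether the counting used strand is not given in the sources used here, and counts of near-identical copies are uncertain. Counting errors cover reads only, and the spread between pools of fish is the larger error here. Some genes of the lists are not reported here by name.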

Additional observations from a re-analysis of the deposited data

How the results depend on the processing

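No paired analysis was possible because no groups were compared. The share of counts in the 10 highest components was 13.9% with named rows alone, 21.3% over all rows and 15.2% without the assembly group that holds the actin annotation. Per length these were 10.97%, 21.01% and 13.4%. The liver lists summed to 20.4% of the level, to 22.6% with all components of a symbol and to 29.9% of counts. The 432 variable components became 1380 at a mean of 1 CPM, 147 at 50 CPM, 1923 with no minimum, 1416 at a ratio of 1.5 and 142 at a ratio of 3. They ranged from 33 without pool c to 385 without pool a. Pool c lay above both others in 999 components at a mean of 1 CPM, in 113 at 50 CPM and in 121 at 2 times. It lay below in 1361, 178 and 161 under the same settings. The antioxidant list was the one list, among those with 3 or more members in which pool c stood apart, whose median reversed. Its log2 difference of pool c from pool a was 0.13 and became -0.011 with library totals. All limits rest on 3 pools, and 1 of them carries most of the spread. With pool a or b left out, the count of components with c above was 478 and 477 and that with c below was 766 and 502.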
